A study of Mus musculus with 9 samples.

Results

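The regenerating (Reg) genes and Spink1 were followed in the livers of mice given an antibody that activates CD40, a receptor on antigen-presenting cells. The 7 genes, Reg1, Reg2, Reg3a, Reg3b, Reg3d, Reg3g, and Spink1, were picked by name from the 24341 genes of the expression table, and their FPKM in these same mice (reads scaled to transcript length and library size) had led to their being picked. Their levels and the differences between groups are therefore a description and were given no test.

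Liver RNA was sequenced from 9 C57BL/6 mice labelled WT, 48 hours after treatment. The anti-CD40 group held mice 2, 5, and 9, and the control group, labelled PBS, held mice 3, 4, 7, 8, 11, and 12. The study's methods give sex-matched mice aged 8 to 12 weeks unless noted otherwise, and the labels state neither age nor sex. The antibody was the agonist FGK45, and each sample was a piece of whole liver from 1 mouse. In whole liver, more cells of a type and more RNA per cell cannot be told apart.

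Reg genes encode small secreted lectin-like proteins. Reg1 and Reg2 are best known from the acinar cells of the pancreas, which make the digestive enzymes, and Reg3b and Reg3g from the gut lining, where they act against bacteria. Injury and cytokines that signal through STAT3 raise several of them in pancreas, gut, and liver. Spink1 encodes a trypsin inhibitor that acinar cells store with the enzymes, and it is also known as an inflammation-responsive gene of the liver.

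The 6 Reg genes lay next to each other on mouse chromosome 6 (build mm10), within 97.99 kb between positions 78370885 and 78468874, in the order Reg3b, Reg3d, Reg3a, Reg2, Reg1, and Reg3g, with the pseudogene Gm52853 between Reg1 and Reg3g. The 250 bases before the annotated start were taken from RefSeq promoters of build GRCm38.p6, which matched 6 of the 7 genes, leaving Spink1. They are shown for Reg3b (chr6:78370635-78370884, plus strand) and Reg3g (chr6:78468875-78469124, minus strand), the pair that was high in mice 2 and 5, for Reg3d (chr6:78378866-78379115, minus strand), which shares a STAT motif with Reg3b, and for Reg2 (chr6:78404905-78405154, plus strand), which was seen in mouse 5 only. Capitals mark the STAT letters TTCNNNGAA, the E-box letters CACCTG, and the TATA letters TATAAA on either strand.
Reg3b: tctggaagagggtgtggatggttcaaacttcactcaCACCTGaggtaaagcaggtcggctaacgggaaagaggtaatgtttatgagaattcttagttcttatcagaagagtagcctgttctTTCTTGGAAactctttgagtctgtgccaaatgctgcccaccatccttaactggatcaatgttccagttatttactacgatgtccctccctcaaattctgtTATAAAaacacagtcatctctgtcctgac
Reg3g: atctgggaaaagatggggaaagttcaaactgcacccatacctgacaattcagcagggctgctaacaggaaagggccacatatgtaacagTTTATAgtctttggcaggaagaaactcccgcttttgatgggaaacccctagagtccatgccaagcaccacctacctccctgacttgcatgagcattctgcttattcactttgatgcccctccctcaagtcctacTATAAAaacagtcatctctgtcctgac
Reg3d: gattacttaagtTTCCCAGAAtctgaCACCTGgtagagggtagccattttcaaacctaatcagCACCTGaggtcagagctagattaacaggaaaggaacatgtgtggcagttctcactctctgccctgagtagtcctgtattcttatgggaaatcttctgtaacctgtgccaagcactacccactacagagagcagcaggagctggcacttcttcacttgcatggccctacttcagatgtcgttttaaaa
Reg2: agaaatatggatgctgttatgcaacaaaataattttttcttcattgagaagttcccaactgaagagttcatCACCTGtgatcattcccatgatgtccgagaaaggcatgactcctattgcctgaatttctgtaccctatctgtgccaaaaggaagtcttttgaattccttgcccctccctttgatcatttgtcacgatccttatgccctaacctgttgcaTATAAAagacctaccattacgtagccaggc

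The STAT letters, a core that STAT factors bind, stood 129 bases before the start of Reg3b and 238 before that of Reg3d, and 8.33% of all 32544 promoters of the same 300 bases (250 before to 50 after the start) held them. The E-box letters CACCTG, of the kind used by the acinar factor PTF1, occurred before Reg2, Reg3a, Reg3b, and Reg3d, against 20.3% of all promoters. The letters TTCCCA, the second box of that factor, occurred in every Reg promoter except that of Reg3b, against 25.4% of all promoters, and 1 of these matches, in Reg3d, overlapped the STAT letters. The C/EBP letters TTGCNNAA matched in Reg2 and Reg3a (10.8% of all), the TATA letters in Reg1, Reg2, Reg3b, and Reg3g (13.6%), and an NF-kB motif in none of the 6 (1.61%). Each motif was searched on both strands, and a match is a description of letters, not a site of binding. The 250 bases of Reg3b and Reg3g were 70.0% identical after alignment, and the 15 pairs of Reg genes ranged from 60.5% to 71.5%. Gaps were not counted, and no unrelated promoters were aligned for comparison.

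**Figure D1:**
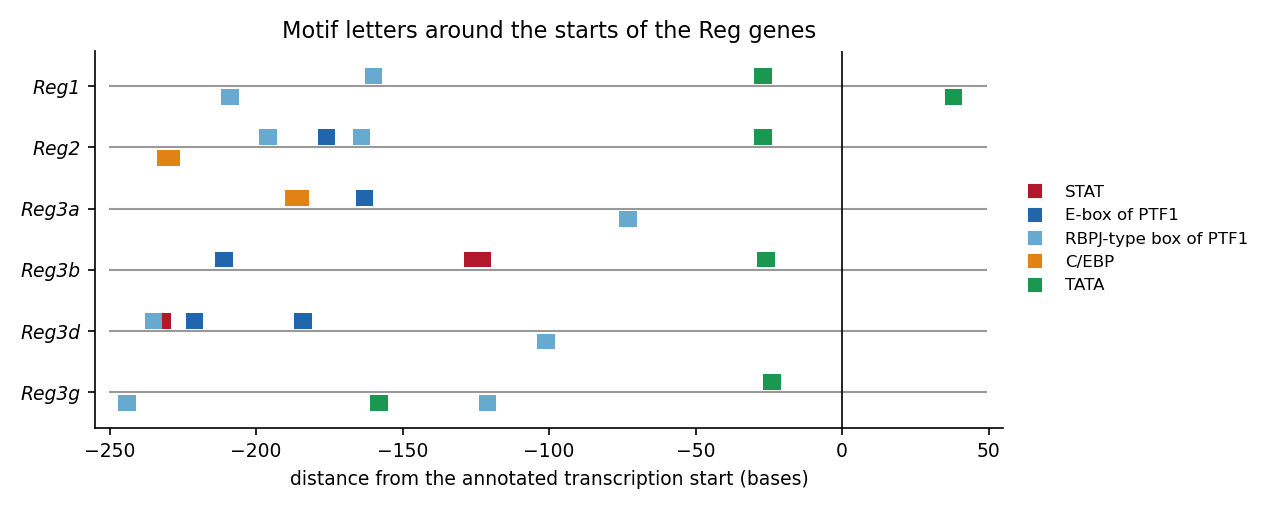
Positions of 5 motifs around the annotated start of each Reg gene, from 250 bases before to 50 after it (x axis, bases), with matches on the gene's strand above the line and those on the other strand below. Reg3b and Reg3d hold STAT letters, at 129 and 238 bases before the start.

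The transcripts of the family are related in sequence, so the identical stretches shared by members were measured. Reg1 and Reg2 were 78.9% identical over their aligned bases, gaps not counted, and the Reg3 pairs between 66.4% and 75.5%. The 8 pairs of Reg1 or Reg2 with a Reg3 gene were between 62.4% and 66.6%. Pairs of a Reg gene with the unrelated Spink1 were between 63.0% and 68.7%, so the lower values do not set relatives apart from an unrelated transcript. The longest run of identical bases between any members was 35, between Reg3b and Reg3g. Within the last 300 bases, where reads of a 3′ library fall, no pair shared a run of more than 22 bases.

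The table gives no read totals. Low values fell on steps the size of a single read, and 64.9% of 1759 low genes came out as whole reads in every mouse (tolerance 0.04 reads), against 0.0% when the steps were dealt to the wrong mice. By these steps 1 read of Reg3b was worth between 0.0817 and 0.106 FPKM, and the relative depth of the mice lay between 0.870 and 1.13. Reads are given below as the smallest whole numbers that gave the FPKM, and their intervals cover counting error only. For Reg2 and Reg3d, above the floor of 0.01 FPKM in 1 mouse only, reads could not be recovered. Because FPKM divides by length and 3′ reads do not grow with length, a level, or the ratio of a pair of genes, is compared between mice only.

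Spink1, the trypsin inhibitor, lies apart from the Reg genes (chr18:43728069-43737237, mm10) and was the member with the same pattern in all 3 anti-CD40 mice. Its level was 52.1, 79.0, and 52.0 FPKM in anti-CD40 mice 2, 5, and 9, and 3.65, 6.54, 4.26, 4.37, 4.43, and 2.84 FPKM in control mice 3, 4, 7, 8, 11, and 12. Behind these values were 248, 354, and 217 reads with anti-CD40 and from 11 to 29 reads per control mouse. The lowest anti-CD40 mouse was far above the highest control mouse, and the groups did not overlap. The mean was 61.0 ± 15.6 FPKM (SD, n = 3) against 4.35 ± 1.23 FPKM (SD, n = 6), a ratio of 14, or 12 without mouse 5. On the scale of log2(FPKM + 0.1), the difference in means was 3.80, and 3.59 without mouse 5.

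Reg3b, a bactericidal lectin of the gut, was high in some of the anti-CD40 mice and not in all. It stood at 48.7, 314, and 0.186 FPKM in anti-CD40 mice 2, 5, and 9. The control mice 3, 4, 7, 8, 11, and 12 held 0.0948, 2.1, 0.262, 0.319, 0.01, and 0.01 FPKM. Mice 2 and 5 were above every control mouse, whereas mouse 9 lay inside the control range. In reads, these were 596, 3617, and 2 in the anti-CD40 mice and 1, 24, 3, 3, 0, and 0 in the control mice. The 95% Poisson interval was 549 to 646 reads for mouse 2 and 0.242 to 7.22 reads for mouse 9, so counting error did not bridge the anti-CD40 mice. The difference in mean log2(FPKM + 0.1) was 5.75, and it was 3.62 without mouse 5 and 8.67 without mouse 9.

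Reg3g, the related lectin active against Gram-positive bacteria, showed the same order of mice. Its level was 11.8, 14.3, and 0.01 FPKM in anti-CD40 mice 2, 5, and 9. Among the control mice, mouse 4 held 0.427 FPKM and the other 5 were at the floor of 0.01. Mice 2 and 5 stood above every control mouse, with 148 and 169 reads, and control mouse 4 rested on 5 reads. Mouse 9 had 0 reads, and the 3 reads taken as the limit for a count of 0 would be 0.272 FPKM. The difference in mean log2(FPKM + 0.1) was 4.22, and it was 3.00 without mouse 5 and 6.52 without mouse 9. These differences depend on the 0.1 added, since most control mice were at the floor.

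Reg3b and Reg3g thus shared their order, and their ratio did not stay the same. Reg3b was 4.14 times Reg3g in mouse 2 and 4.93 times in control mouse 4, both in FPKM, and 22.0 times in mouse 5. The level in mouse 5 was 6.45 times that in mouse 2 for Reg3b, 1.21 times for Reg3g, and 1.52 times for Spink1. Over all genes tested, 3 had mice 2 and 5 both more than 10 times above the highest control mouse with mouse 9 inside the control range, after levels under 0.1 FPKM were set to 0.1. They were Reg3b, Reg3g, and the microRNA gene Mir671, whose position in the table is shared with another gene. The rule was written from the values of Reg3b and Reg3g, so both had to meet it, and the count is a description.

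Reg1, a secreted product of acinar cells, was high in mouse 5 alone. Its level was 0.16, 64.3, and 0.824 FPKM in anti-CD40 mice 2, 5, and 9. It was 0.0931, 0.0861, 0.01, 0.01, 0.0941, and 0.01 FPKM in control mice 3, 4, 7, 8, 11, and 12. The groups did not overlap for Reg1 either, but mouse 2 rested on 2 reads and mouse 9 on 9 reads, against 754 reads in mouse 5 and no more than 1 read in any control mouse. The intervals of mouse 2 (0.242 to 7.22 reads) and of a control mouse with 1 read (0.0253 to 5.57 reads) overlapped, so at this depth those mice could not be told apart.

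Reg2, the closest relative of Reg1, was seen in mouse 5 only, at 80.1 FPKM, with mice 2 and 9 and all 6 control mice at the floor of 0.01. Reg3d had the same pattern at a level of 6.03 FPKM in mouse 5. Reg3a held 0.0716, 56.7, and 0.01 FPKM in anti-CD40 mice 2, 5, and 9, and 0.0831, 0.154, 0.01, 0.0930, 0.01, and 0.01 FPKM in control mice 3, 4, 7, 8, 11, and 12. Outside mouse 5, which had 745 reads, Reg3a never exceeded 2 reads. Its difference in mean log2(FPKM + 0.1) was 2.76 and turned to -0.14 without mouse 5.

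**Figure D2:**
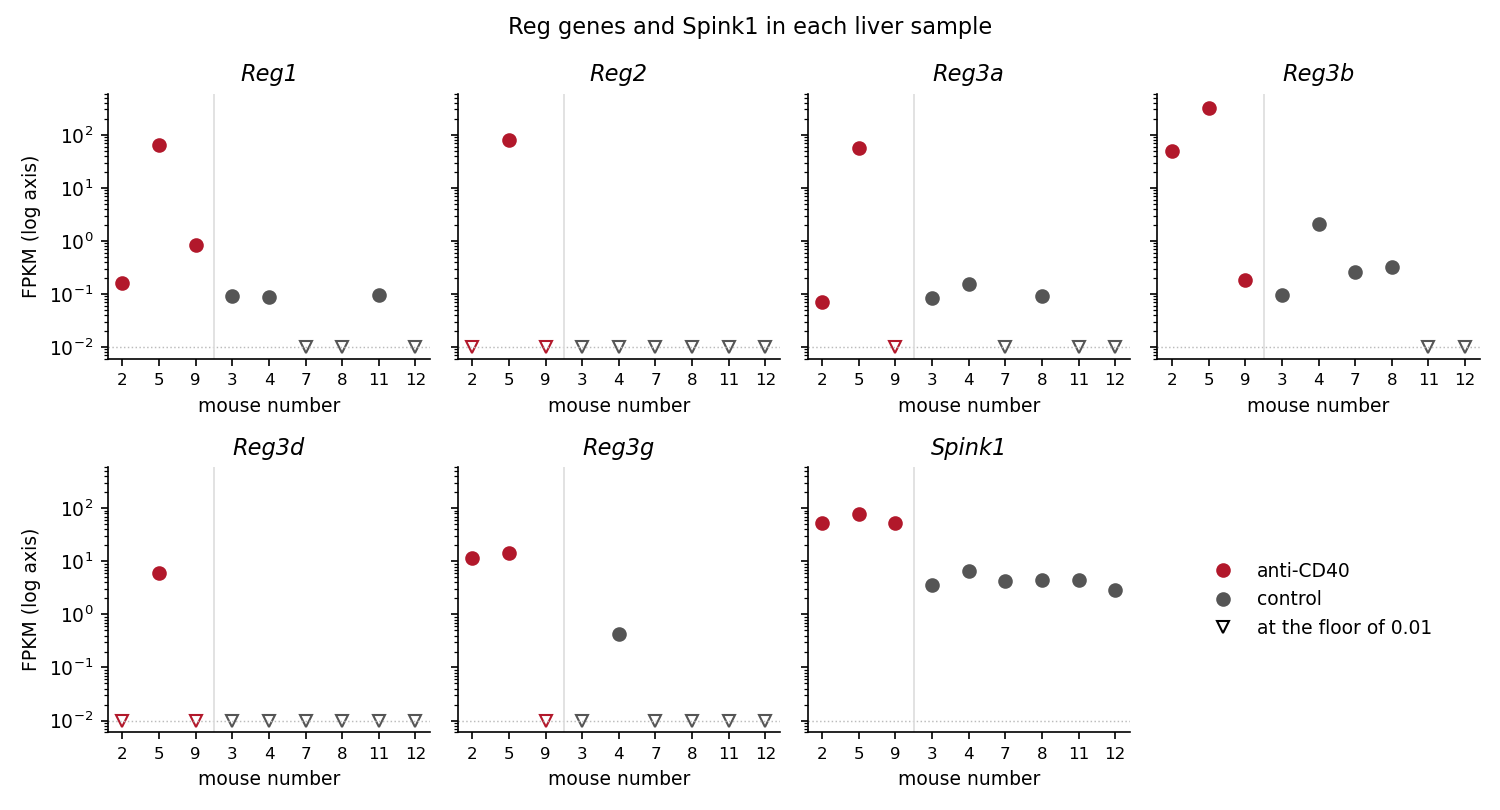
FPKM of each of the 7 genes (y axis, log scale) in each mouse (x axis), anti-CD40 mice in red and control mice in grey, with open triangles at the floor of 0.01. Spink1 was high in all 3 anti-CD40 mice, Reg3b and Reg3g in mice 2 and 5, and Reg1, Reg2, Reg3a, and Reg3d in mouse 5.

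All 7 genes passed the filter of a mean of at least 0.1 FPKM, and 4 would pass it without mouse 5 (Reg1, Reg3b, Reg3g, and Spink1). In 2 of the 7, Reg1 and Spink1, every anti-CD40 mouse was above every control mouse, beside 22.7% of the 13807 genes tested. Without mouse 9, Reg3b and Reg3g joined them. Leaving out a mouse can only add to such a count, and the share over all genes was not taken for that setting. The members were chosen on this contrast, so nothing is read from either count.

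Mouse 5 also held transcripts of the pancreas, at levels far beyond the other mice. Of 36 pancreatic acinar genes looked for, 34 were in the table and 29 were above the floor in some mouse, and 28 of these were highest in mouse 5. Without Amy1 and Cela1, which liver also expresses, the list summed to 1543 FPKM in mouse 5, to 9.75 and 15.0 FPKM in mice 2 and 9, and to a range from 2.30 to 12.2 FPKM over the control group. Of 14 islet genes above the floor in some mouse, 8 were highest in mouse 5. Ins2, encoding insulin, was at 7.67 FPKM in mouse 5 and at the floor in the other 8 mice. The summed islet list was 14.8 in mouse 5 and at most 0.751 elsewhere. Of 5 acinar regulators, Ptf1a stood at 0.147 FPKM in mouse 5 and at the floor elsewhere, whereas Nr5a2, at 7.47 FPKM, and Gata4, at 0.917 FPKM, did not lie above the control range in mouse 5. In all, 36 of the 10347 genes with at least 1 FPKM in mouse 5 were more than 10 times higher there than in every other mouse, and these included Reg1, Reg2, Reg3a, and Reg3d, 23 acinar enzymes, and 4 islet genes. The part of these transcripts in the Reg values of mouse 5 was not tested.

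The levels in mice 2 and 9, as a percent of mouse 5, set the members beside the acinar genes. Reg1 was at 0.250% in mouse 2 and 1.28% in mouse 9. Reg3b was at 15.5% in mouse 2 and 0.0594% in mouse 9, and Reg3g was at 82.4% in mouse 2 and at the floor in mouse 9. Spink1 was at 65.9% and 65.8% in mice 2 and 9. For the 24 acinar genes chosen for being more than 10 times higher in mouse 5 than in every other mouse, a choice that keeps them under 10%, the median was 0.304% in mouse 2 (9 genes at the floor) and 0.764% in mouse 9 (6 at the floor). Among the acinar genes that this choice left out, Klk1 was at 12.0% and 11.7%, Cela1 at 8.57% and 9.29%, and Amy1 at 115% and 124% in mice 2 and 9. Over the whole acinar list, mouse 9 was above mouse 2 for 19 genes and below it for 3, whereas for Reg3b and Reg3g mouse 2 was above mouse 9. These are the values on which the members were chosen, so the order is a description.

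**Figure D3:**
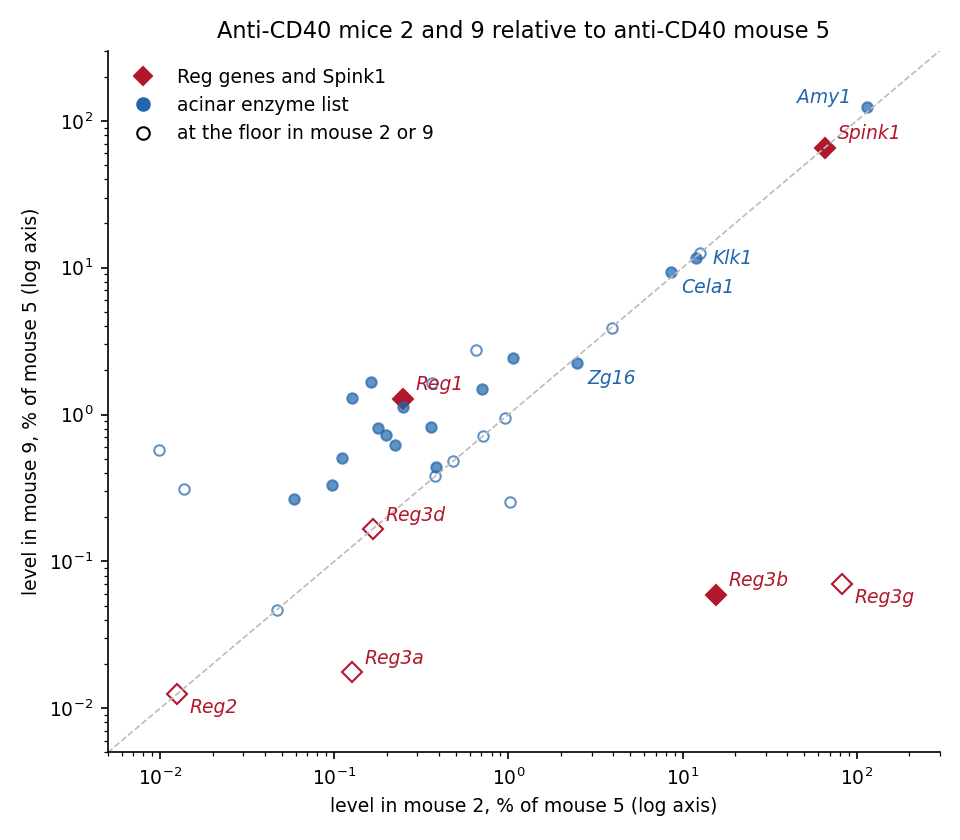
Level in mouse 2 (x axis) and in mouse 9 (y axis) as a percent of the level in mouse 5, both on log scales, for the 7 genes (red diamonds) and the acinar list (blue circles), open where mouse 2 or 9 was at the floor. Reg1 is at 0.250% and 1.28% of mouse 5 in mice 2 and 9, Reg3b and Reg3g at 15.5% and 82.4% in mouse 2, and Spink1 at 65.9% and 65.8%.

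Traces of other organs were also present in control mice. Stomach genes summed to 182 and 279 FPKM in control mice 7 and 8, with Tff1 and Gkn1 leading, against 4.40 to 25.6 in the other 7 mice. Adipocyte genes summed to 1180.3 and 937 FPKM in control mice 4 and 7, against 81.3 to 553 in the rest. Most of that sum was Fabp4 in every mouse, at 542, 375, and 414 FPKM in anti-CD40 mice 2, 5, and 9. Adipoq was at 26.3 and 35.0 FPKM in control mice 4 and 7 and at no more than 3.09 FPKM in the rest. The list of gut epithelial genes, from a tissue known to make Reg3b and Reg3g, summed to 95.8, 77.2, and 84.7 FPKM in anti-CD40 mice 2, 5, and 9 against a control range of 44.4 to 98.2 FPKM. Most of this was Fabp2, and without that gene, a choice made after the values were seen, the sums were 41.3, 26.3, and 27.9 FPKM against 1.83 to 8.19 FPKM, with no overlap. Most of what remained in the anti-CD40 mice was again 1 gene, Tff3, at 34.2, 16.8, and 20.7 FPKM in mice 2, 5, and 9. Of 9 gut genes tested, 5 were higher by limma and 0 lower, beside 23.5% and 21.7% over all genes tested. Lgals4, whose position in the table is shared with another gene, was at 2.41, 1.83, and 2.71 FPKM against no more than 1.54 FPKM in the control mice. Cdh17, named after its values were seen, was at 0.747, 0.338, and 0.427 FPKM against no more than 0.0892 FPKM. The gut enzyme genes Sis and Lct, named after their values were seen, were at the floor in all 3 anti-CD40 mice. Of the defining gut factors, Cdx2 was at the floor in all 9 mice and Cdx1 was at 0.0876 FPKM in mouse 2 and at the floor elsewhere. The Paneth cell gene Defa24, named after its values were seen, was at 2.94 and 0.729 FPKM in mice 5 and 9 and at the floor elsewhere. Its position in the table is shared with another gene. The related Defa17, also named after its values were seen, was at 2.12 FPKM in mouse 5, 0.259 in control mouse 11, and at the floor elsewhere. The part of these transcripts in the levels of Reg3b and Reg3g was not tested. With control mice 4, 7, and 8 left out, a choice made after the data were seen, Spink1 had a difference of 4.02 on the log2(FPKM + 0.1) scale and Reg3b of 6.94, and with mouse 5 left out as well these were 3.82 and 4.81. Reg3b then joined Reg1 and Spink1 among the genes whose groups did not overlap, but the 3 control mice left out were those with the most Reg3b. The gap lay between 2 reads in mouse 9 and 1 read in control mouse 3. The share of all genes whose groups did not overlap was not taken without these mice.

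**Figure D4:**
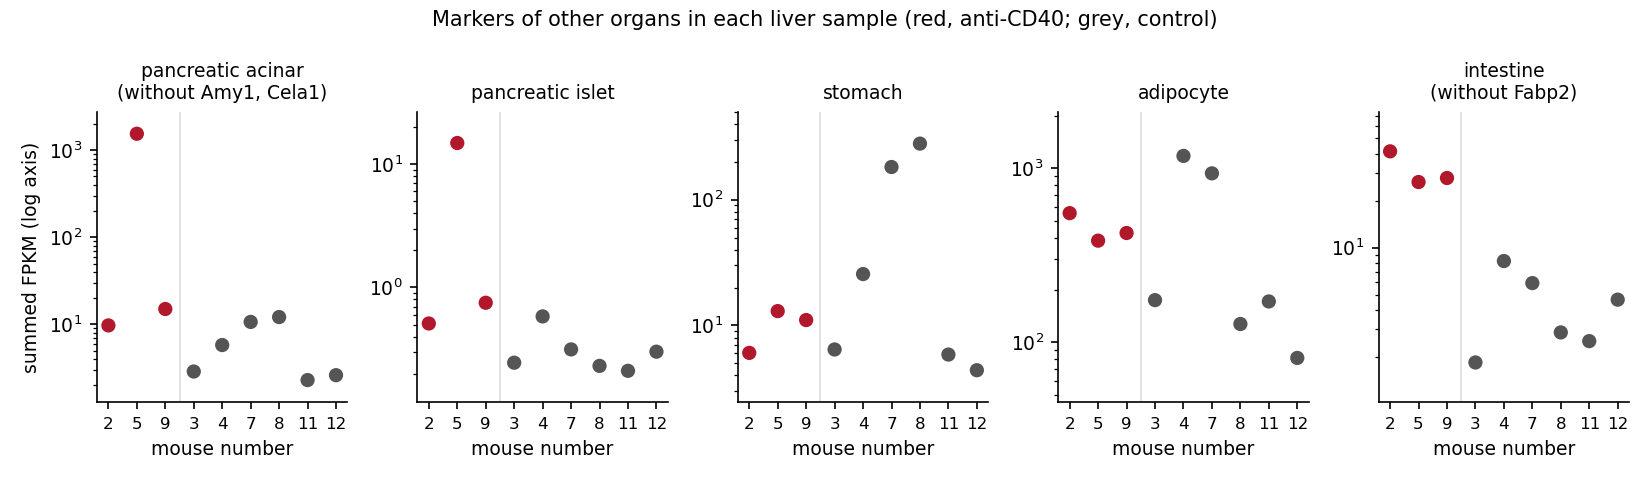
Summed FPKM (y axes, log scales that differ between panels) of marker lists for 5 other tissues in each mouse (x axes), anti-CD40 mice in red and control mice in grey. Mouse 5 stands out for acinar genes at 1543 and for islet genes at 14.8, and control mice 7 and 8 for stomach genes at 182 and 279. The intestinal list is shown without Fabp2, and most of its sum in the anti-CD40 mice was Tff3.

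Few acinar genes passed a test of the difference between the groups. Among 27 acinar genes tested, 5 were higher in the anti-CD40 mice and 1 lower at an adjusted p under 0.05 (limma with Benjamini-Hochberg adjustment), beside 23.5% higher and 21.7% lower over all 13807 genes tested. The 5 were Zg16, Cpb1, Rnase1, Sycn, and Klk1, the last of which was named after its values were seen. Sycn reached the filter through mouse 5 alone, with 0.129, 12.2, and 0.294 FPKM in mice 2, 5, and 9. All control mice were at the floor for Sycn, and nothing is read from its call. Amy1, encoding an amylase that liver makes too, fell from 202 ± 27.1 FPKM (SD, n = 6) to 52.1 ± 5.54 FPKM (SD, n = 3), with a log2 fold change of -1.95 ± 0.14 (SE) and an adjusted p of 2.92e-06 by limma. Without mouse 5, 14 acinar genes were tested, of which 4 were higher and 3 lower, and without mouse 2, 15 were higher. None of the 2 tested acinar regulators, 5 islet genes, 6 stomach genes, or 7 adipocyte genes passed the test. Without mouse 5, 14 acinar genes and 1 islet gene reached the filter. Genes that reached it through mouse 5 alone had a wide spread within the anti-CD40 group, which makes passing hard. Their failure to pass is therefore not read as a lack of difference. At an unadjusted p under 0.05 by limma, 1 acinar regulator (Gata4) and 1 islet gene (Sst, named after its values were seen) passed, and 0 stomach and 0 adipocyte genes did.

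The genes whose pattern across the 9 mice was most like each member differed between members. By Pearson's r of log2(FPKM + 0.1) over 9 mice, which share the 2 groups and mouse 5, the 5 genes most like Reg1 were acinar enzymes or secretory proteins, namely Sycn (r = 0.99), Pnlip (0.98), Cpb1 (0.98), Rnase1 (0.98), and Cela3b (0.98). That order rested on mouse 5, since over the other 8 mice the first 5 were Pfkfb2, Agap1, Sycn, Cetn4, and Mob3a (0.90 to 0.92), of which Sycn alone is an acinar gene. Reg2 and Reg3d were among 13 genes of at least 1 FPKM in mouse 5 and at the floor in every other mouse, and such genes cannot be ranked. For Reg3a, the genes of that kind tied at 0.99, and they held the hormone genes Ins1, Ins2, Pyy, and Iapp, the acinar genes Pnliprp1, Pnliprp2, Try10, and Cuzd1, and the small RNA genes Mir5136 and Snord96a.

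Reg3b was most like Mir671 (r = 0.95), Edc4 (0.94), Zfp719 (0.92), Nat10 (0.91), and Dmbt1 (0.91), which encodes a secreted scavenger receptor of mucosal surfaces. Dmbt1 was at 0.209, 2.07, and 0.0256 FPKM in anti-CD40 mice 2, 5, and 9, and no control mouse exceeded 0.0240 FPKM. Reg3g had Mir671 (0.95) and Edc4 (0.95) in front. Among the members themselves Reg3b and Reg3g had an r of 0.98, and 0.97 without mouse 5, whereas Reg3b and Reg1 had 0.74 and, without mouse 5, 0.15. Spink1 was most like Ccdc88a, Tekt5, Dcstamp, Il12b, and Usp1 (all 0.99), genes that differed between the groups in all 3 anti-CD40 mice.

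The other genes of the STAT3 pathway, to which Reg and Spink1 genes are known to respond, were read from a fixed list of cytokines, receptors, and signalling genes. Of the 19 tested, 13 were higher in the anti-CD40 mice and 2 lower, beside 23.5% higher and 21.7% lower over all genes tested. The median log2 fold change was 0.98, beside a median of 0.0056 over all genes tested. Il22, a cytokine known to raise Reg3 genes, was listed at the floor in all 9 mice. Its receptor chain Il22ra1 rose by a log2 fold change of 2.04 ± 0.25 (SE; limma adjusted p = 0.000102). Il6 was at 0.307, 0.327, and 0.234 FPKM in anti-CD40 mice 2, 5, and 9, with no control mouse above 0.165, a rise of 1.19 ± 0.32 (limma adjusted p = 0.0121), while its receptor Il6ra did not pass the test (-0.57 ± 0.39, limma adjusted p = 0.263). The oncostatin M receptor Osmr (2.09 ± 0.22), the feedback inhibitor Socs3 (2.5 ± 0.35), and Stat3 (1.07 ± 0.17) rose, and Lifr, the receptor for leukemia inhibitory factor, fell by 2.93 ± 0.29, all as log2 fold changes with SE. Among the anti-CD40 mice, the lowest level was in mouse 2 for 4, in mouse 5 for 8, and in mouse 9 for 7 of the 19 genes. The highest level was in mouse 2 for 10, in mouse 5 for 5, and in mouse 9 for 4 of the 19. Mouse 9, low in Reg3b and Reg3g, was the highest of these mice for Stat3 (97.2, 93.0, and 104 FPKM in mice 2, 5, and 9) and Socs3 (6.23, 7.38, and 8.15 FPKM). It was the lowest for Osmr (5.56, 5.62, and 4.08 FPKM) and Il22ra1 (4.92, 4.13, and 3.73 FPKM).

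Acute phase genes that STAT3 is known to drive in hepatocytes were higher in 23 of 27 tested and lower in none, with a median log2 fold change of 2.26. Over all genes tested, 23.5% were higher and 21.7% lower. Saa3 and Saa2, encoding serum amyloid A, led with log2 fold changes of 8.62 ± 0.46 and 8.60 ± 0.48 (SE), followed by Lcn2 at 8.38 ± 0.43 and Saa1 at 7.65 ± 0.70, and Hp and Orm1 had 2.26 ± 0.32 and 2.84 ± 0.20. The difference of Spink1, 3.80, lay between that of Il1rn at 3.90 and that of Steap4 at 2.97, and the last pair were named after their values were seen. Among the anti-CD40 mice, Saa2 was at 97750.0, 96216, and 96930.0 FPKM and Hp at 15059, 20944, and 11331 FPKM in mice 2, 5, and 9, so the spread differed from gene to gene.

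**Figure D5:**
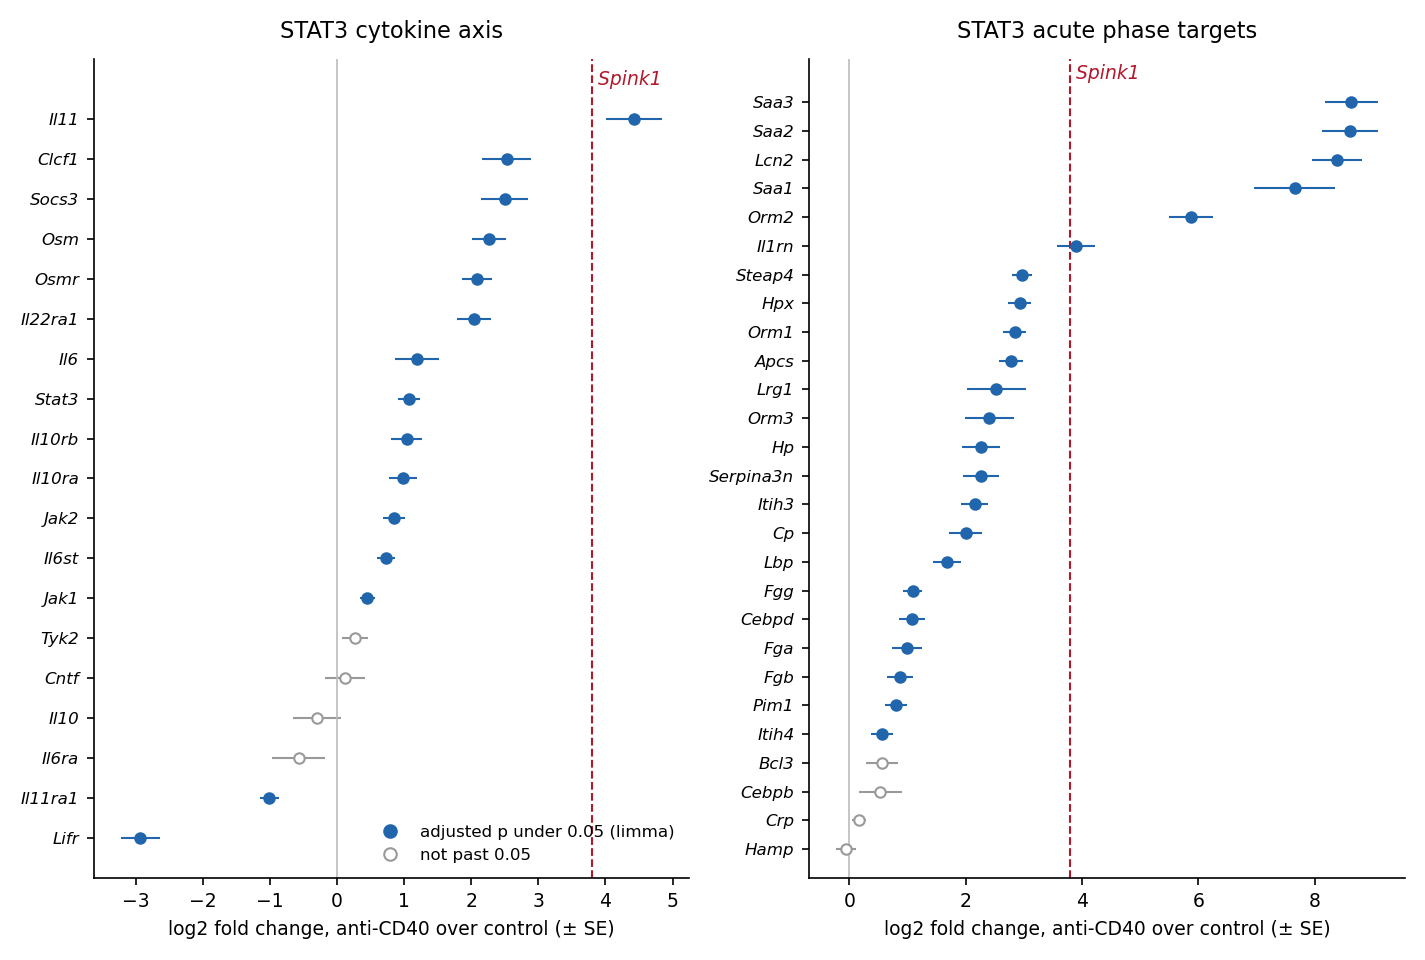
Log2 fold change of anti-CD40 over control on the log2(FPKM + 0.1) scale, with its SE (x axes), for each gene tested in 2 lists (y axes), filled where the limma adjusted p was under 0.05. The dashed red line marks Spink1 at 3.80, which was not tested, and 13 of 19 and 23 of 27 genes were called higher, beside 23.5% of all genes tested.

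Summed markers of B cells and neutrophils were higher, and those of hepatocytes lower, in all 3 anti-CD40 mice than in every control mouse. The 7 B cell genes and 9 neutrophil genes tested were all higher, beside 23.5% over all genes tested. Their summed levels were 31.9 to 47.2 FPKM against 1.69 to 7.55 for B cells and 4230 to 5220 against 19.2 to 157 for neutrophils. Most of the neutrophil sum was S100a8 and S100a9, at 2916.3 to 3677.1 and 1238.5 to 1618.6 FPKM with anti-CD40. The neutrophil genes Mpo and Elane and the B cell gene Pax5 were below the filter and were not tested. Control means were under 0.1 FPKM for Mmp8, Ngp, Ltf, Cxcr2, Cd79a, and Blk, which reached the filter through the anti-CD40 mice alone. For these genes the filter itself favoured a call of higher, so that all were higher is a description. Hepatocyte genes summed to 14767 to 18162 FPKM with anti-CD40 and to 22958 to 53515 FPKM without it. Of 9 tested, 6 were lower and 2 higher, beside 21.7% and 23.5% over all genes tested. Among them were Alb at a log2 fold change of -2.43 and the acute phase gene Fgb at 0.88. The part of these cells in the level of Spink1 was not tested.

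Among relatives and partners of the members, few genes were expressed. Of 14 looked for, 6 Spink genes were at the floor in all 9 mice and 7 genes were tested, of which 2 rose and 1 fell (28.6% and 14.3%, beside 23.5% and 21.7% over all genes tested). Egfr, the growth factor receptor that Spink1 is reported to bind, rose from between 23.9 and 116 FPKM in the control mice to 158, 164, and 160 FPKM (log2 fold change 1.57 ± 0.40 SE, limma adjusted p = 0.00917). Spink2, named after its values were seen, rose by 1.85 ± 0.52 (limma adjusted p = 0.0138), from no more than 0.281 FPKM to 0.392, 0.139, and 0.895 FPKM, so mouse 5 lay inside the control range. Spink10 fell by 0.69 ± 0.13 (limma adjusted p = 0.00187). Reg4, the family member outside the chromosome 6 cluster, was at 0.222, 0.0589, and 0.316 FPKM in mice 2, 5, and 9 and 0.216 to 0.584 FPKM in the control mice and did not pass the test (adjusted p = 0.101 by limma). Extl3, described as a receptor of Reg proteins, was at 2.22, 2.71, and 2.33 FPKM against 2.00 to 3.49 FPKM and did not pass either (adjusted p = 0.598 by limma).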

How the data were processed

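Liver RNA of 9 mice was made into QuantSeq 3′ libraries and sequenced on an Illumina NextSeq. Reads were mapped by the authors to mm10 (STAR) and passed to Cufflinks and Cuffdiff, as the submitters' processing notes and the paper's methods state. They deposited FPKM, 1 value per gene and mouse, in which 0.01 is the lowest value and FAIL marks a failed estimate. The annotation behind the table is not given in the sources used here.

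The 15 genes with a failed estimate were left out, and 24326 remained. Deposited FPKM were taken to log2 after adding 0.1, and the 13807 genes whose mean reached 0.1 FPKM were tested with limma 3.58.1 in R 4.3.3 (eBayes with a trend, no covariate besides treatment, 2-sided, Benjamini-Hochberg adjustment over all genes tested, threshold 0.05). Since the filter took the mean over all mice, a gene low in control mice could reach it through the anti-CD40 mice alone. This holds for every list. The script was tested on simulated data. The difference between groups was not tested for the members. The labels do not name litters, cages, or batches, so p-values measure the spread between these mice. Whole reads were recovered from the steps of low FPKM values, and no count test was run. Absolute depth is unknown. Start positions are counted from 1.

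The members and the 14 gene lists were chosen with earlier results of these data known. Lists were written from general knowledge and cover acinar enzymes, acinar regulators, islet, duct, intestine, stomach, adipocyte, B cell, neutrophil, and hepatocyte markers, cytokines and receptors of STAT3, acute phase targets, secreted antimicrobial proteins, and relatives of Reg and Spink. Named genes were the 7 members, the 4 genes of each list with the highest mean FPKM (10 for acinar enzymes, 6 for acute phase targets), Il22, Il22ra1, Il6, Il6ra, Osmr, Stat3, Socs3, Reg4, Extl3, and Egfr, and for each member the 5 genes with the highest Pearson r. Some of these genes are not reported, and their values did not decide which. Genes named outside this rule were chosen after their values were seen.

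Promoters were RefSeq windows of GRCm38.p6, and transcripts came from GENCODE for the same assembly, aligned with Biopython 1.88. Protein identity was not analysed here. Alternatives were a pseudocount of 1 or of 0.01, a mean of at least 1 FPKM or no filter on low values, quantile normalization, scaling by median ratios, eBayes with no trend or in its robust form, array weights, and leaving out each mouse. Leaving out control mice 4, 7, and 8, with or without mouse 5, was chosen after seeing the data. Other steps used Python 3.11.15 (numpy 2.4.6, pandas 2.3.3), and figures used matplotlib 3.10.9.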

Additional observations from a re-analysis of the deposited data

Results flagged for a closer look

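Among the 6 control mice, 14 of 68 genes examined had a highest mouse set apart from the others by a gap in FPKM. The gap was taken as a share of the group's whole range and was beyond Dixon's 95% limit for 6 samples. For normally distributed values, about 1 in 20 genes, or 3.4, would pass that limit. FPKM can be skewed and stop at a floor, so the 14 genes cannot be weighed against that number. Both Reg3b and Reg3g were among them, and since the members were chosen from these values, their gaps are a description. For Reg3b, control mouse 4 held 2.1 FPKM and the next control mouse 0.319, a gap of 0.853 of the range. For Reg3g, control mouse 4 held 0.427 FPKM with the other 5 control mice at the floor, a gap of 1.0 that any value above the floor in a single mouse would give. The value of Reg3g rests on 5 reads and that of Reg3b on 24.

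Control mouse 4 was also the highest and set apart for the neutrophil genes Camp (0.812) and S100a9 (0.686), the B cell genes Cd79b (0.712) and Fcer2a (0.675), the receptor Osmr (0.639), and the acinar enzyme Cela3b (0.626). Its summed adipocyte genes were the highest of the control mice, and the cause of these values was not tested. Control mouse 12 was set apart for Bhlha15 (0.935), Hp (0.7), Ahsg (0.676), and Stat3 (0.655), control mouse 8 for Saa1 (0.746), and control mouse 7 for Cela1 (0.659).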

How the results depend on the processing

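No paired analysis was possible because the groups share no mouse numbers and the labels name no litter or batch. The levels of the members are limited by reads below about 1 FPKM, and the group of 3 anti-CD40 mice holds 3 different patterns of Reg genes.

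For members with a difference in log2(FPKM + 0.1), leaving out 1 mouse gave 1.76 to 5.73 for Reg1, -0.14 to 4.37 for Reg3a, 3.62 to 8.67 for Reg3b, 3.00 to 6.52 for Reg3g, and 3.59 to 3.92 for Spink1. Reg3a reversed to -0.14 without mouse 5, the only mouse with more than 2 reads. The count of members whose groups did not overlap, 2, lay between 2 and 4 when 1 mouse was left out, which can only raise it. Over the whole table the genes called, 6230, lay between 4814 and 7377 in all alternatives.

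Calls in the lists moved by more than 1.5 times in the settings given here, and the cause was not tested. Acinar enzymes called higher (5) were 2 with a pseudocount of 1, 8 with 0.01, 2 with no filter, and 3 without control mice 4, 7, and 8, and acinar enzymes called lower (1) were 2 when mouse 5 was left out as well. Leaving out 1 mouse gave 4 to 15 higher (15 without mouse 2) and 1 to 3 lower (3 without mouse 5). Islet genes called higher (0) were 1 with a pseudocount of 0.01, with array weights, and in both settings without control mice 4, 7, and 8, and 2 with no filter. Acinar regulators called lower (0) were 1 with quantile normalization, without the trend, and with array weights, and 0 to 1 when 1 mouse was left out (1 without mouse 8). With a mean of at least 1 FPKM, 2 duct genes, 3 gut genes, 4 B cell genes, and 1 relative were called higher, in place of 4, 5, 7, and 2. Relatives called lower (1) were 2 with a pseudocount of 0.01, without the trend, and with array weights, and 3 with quantile normalization. When 1 mouse was left out, 1 to 2 relatives were called higher (1 without mouse 9) and 1 to 2 lower (2 without mouse 11). Hepatocyte genes called higher (2) were 1 with no filter, 1 without control mice 4, 7, and 8, 0 without these and mouse 5, and 1 to 2 when 1 mouse was left out (1 without mouse 5). Without control mice 4, 7, and 8, 2 adipocyte genes were higher and 1 gut gene lower, in place of 0 and 0. Without those and mouse 5, 2 adipocyte genes and 1 relative were higher. Leaving out 1 mouse gave 0 to 1 stomach genes higher (1 without mouse 2) and 0 to 3 adipocyte genes lower (3 without mouse 12). The other 594 counts stayed within 1.5 times of those reported.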

Other observations

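Other secreted defence proteins were looked at beside Reg3b and Reg3g, since these are known as antimicrobial lectins. Of 18 secreted antimicrobial genes tested, 15 were higher in the anti-CD40 mice and none lower by limma, with a median log2 fold change of 3.00. Over all genes tested, 23.5% were higher and 21.7% lower. Lcn2, encoding the iron-binding lipocalin 2, was at 1916, 2496, and 2768 FPKM in anti-CD40 mice 2, 5, and 9, with control mice between 3.11 and 16.1 FPKM. Among the anti-CD40 mice, 9 of the 18 genes were lowest in mouse 9, 6 in mouse 2, and 3 in mouse 5, and Lcn2 was among 5 that were highest in mouse 9. S100a8, of neutrophils, had a log2 fold change of 7.00 ± 0.64 (SE), whereas Hamp, encoding the iron hormone hepcidin, had -0.06 ± 0.17 and did not pass the test (limma adjusted p = 0.80).

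Duct markers, which include genes of bile ducts, were called higher in 4 of 9 tested and lower in none, beside 23.5% higher over all genes tested. Sox9, a factor of duct and progenitor cells, rose from between 3.17 and 8.23 FPKM to 64.8, 49.3, and 48.5 FPKM in mice 2, 5, and 9, with a log2 fold change of 3.57 ± 0.29 (SE, limma adjusted p = 6.4e-06). Spp1 rose by 2.39 ± 0.41, and Krt7 did not pass the test (0.19 ± 0.34). Of 9 gut genes tested 5 were higher, beside the same 23.5%, among them the trefoil factor gene Tff3, at 34.2, 16.8, and 20.7 FPKM against no more than 5.79 FPKM in the control mice.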
